A study of Mus musculus with 19 samples.

Results

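The lines compared here are mouse embryonic stem (ES) cell lines that regained an undifferentiated state after a differentiation culture with AICAR. They were established in different ways. Colony lines, numbered 1, 3, 4, 5, 6, 7, 9 and 10, were grown from picked GFP-positive colonies (8 libraries). Sorted lines 1 and 2 were grown from GFP-positive cells collected by cell sorting (2 libraries). Membership follows the library titles, and these 10 libraries are part of 19 in the series. All 10 descend from Rex1 GFPd2 ES cells, in which a short-lived green fluorescent protein reports the gene Rex1 (Zfp42). The parent cells spent 2 days in serum differentiation medium, and cells negative for both the surface antigen SSEA1 and GFP were sorted from them. Those cells stayed in differentiation medium with AICAR until day 15, when GFP-positive colonies were picked or GFP-positive cells sorted. Both kinds of line were then expanded on gelatin with LIF and 2i (inhibitors of MEK and GSK3), with a passage every 3 to 4 days. The labels do not give the number of passages, whether a picked colony came from a single cell, how many cells founded a sorted line, or whether libraries of a group are separate reversion experiments. P-values therefore measure only the spread between these lines.

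The naive state of mouse ES cells is held by a network of transcription factors that includes Pou5f1, Sox2, Nanog, Esrrb, Klf4 and Tfcp2l1. LIF feeds this network through STAT3, while 2i blocks the ERK signal that pushes cells toward differentiation and mimics Wnt signalling. A line founded by a picked colony can carry the genetic and imprinting changes of its founder cells into all of its descendants, whereas a line founded by many sorted cells averages over its founders. AICAR enters cells, is phosphorylated to an AMP mimic and activates the energy-sensing kinase AMPK.

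Each library gave 5937370 to 7370560 reads in genes and 14796 to 15060 genes with reads, all in 1 sequencing project. Every line expressed marker genes of naive ES cells, although Dppa3 was near the floor, at 0.49 to 1.43 CPM in the colony lines and 2.72 to 2.90 CPM in the sorted lines. The summed level of 7 such markers was 3037 to 3391 CPM (reads in a gene relative to all reads in genes, after scaling between libraries) in the colony lines, against 3330 and 3258 CPM in sorted lines 1 and 2. Pou5f1 alone gave 1406 to 1562 CPM of this sum in the colony lines. The 6 endoderm markers summed to 1.66 to 13.2 CPM in the colony lines, against 4.68 and 2.86 CPM in the sorted lines, and 1 of them, Ttr, had no reads in any of the 10 lines. The 6 fibroblast markers summed to 2.40 to 119 CPM in the colony lines, against 3.39 and 3.86 CPM in the sorted lines. For the 4 muscle markers the sums were 4.97 to 137 CPM in the colony lines, against 5.65 and 5.43 CPM in the sorted lines. For the 3 neural markers, mostly Tubb3, they were 52.0 to 106 CPM in the colony lines, against 118 and 105 CPM in the sorted lines. In bulk RNA, fewer cells of a type and less RNA per cell cannot be told apart.

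A technical gradient ran through the same lines. Among the 2968 tested genes with the shortest exons (median 733 bases), the median level relative to the mean of the 10 lines was lower in colony lines 1, 4, 5 and 7, at -0.09, -0.13, -0.08 and -0.09 on the log2 scale. In colony lines 3, 6, 9 and 10 it was 0.08, 0.06, 0.09 and 0.04, and in sorted lines 1 and 2 it was 0.10 and 0.08. The longest genes ran the other way. The part of this gradient in the results below was not tested except where values with the length trend removed are given.

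No gene passed the test between colony lines and sorted lines. Of 11870 genes tested with the edgeR quasi-likelihood test, 0 were called higher (0%) and 0 lower (0%) at a Benjamini-Hochberg adjusted p under 0.05, and the smallest adjusted p was 0.484. At an unadjusted p under 0.05, 532 genes (4.48%) had a higher mean in colony lines and 560 (4.72%) a lower one. DESeq2 called 1 gene higher, Camk1d, and 1 lower, Psat1, both at an adjusted p of 0.0468, and limma-voom called 0. In 7293 of the 11870 genes (61.4%) both sorted lines lay within the range of the 8 colony lines. Every colony line lay above both sorted lines in 495 genes (4.17%) and below both in 619 genes (5.21%). The typical spread between lines of a group was a biological coefficient of variation of 0.115. None of the 33 gene lists examined held a called member, and 19 of their 33 median log2 fold changes were between -0.1 and 0.1.

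Sorted line 1 was most like colony line 6, and sorted line 2 was most like colony line 3. Likeness was measured as the root mean square (RMS) difference of log2 CPM over the 11870 genes, where a smaller value means more alike. Sorted line 1 lay 0.326 from colony line 6, 0.330 from line 10, 0.333 from line 3 and 0.349 from line 9. Its distances to the other 4 colony lines were 0.456 for line 1, 0.487 for line 7, 0.489 for line 4 and 0.4997 for line 5. The order held a gap after the nearest 4 lines, while steps among those 4 were small. Sorted line 2 lay 0.319 from colony line 3, 0.321 from line 10, 0.330 from line 6 and 0.331 from line 9. Colony lines 1, 4, 7 and 5 followed at 0.454, 0.477, 0.481 and 0.491. The same 4 colony lines were thus nearest to both sorted lines.

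These distances need to be read against counting noise, which alone would give 0.259 to 0.281 for libraries of these depths. With that noise subtracted, 0.180 remained between sorted line 1 and colony line 6, and 0.184 between sorted line 2 and colony line 3. The sorted lines lay 0.302 from each other, or 0.133 beyond noise. Pairs of colony lines ranged from 0.290 for lines 3 and 10 to 0.516 for lines 7 and 9, so colony lines differed among themselves as much as they differed from the sorted lines. Spearman correlations between sorted and colony lines were 0.983 to 0.994 across genes, which are not independent replicates. In all 11 other ways of measuring the distance, colony line 6 stayed nearest to sorted line 1 and colony line 3 to sorted line 2, with the same 4 lines ahead of the rest. With the exon length trend removed, the distances on either side of this gap were 0.349 and 0.436 for sorted line 1, and 0.331 and 0.439 for sorted line 2.

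**Figure D1:**
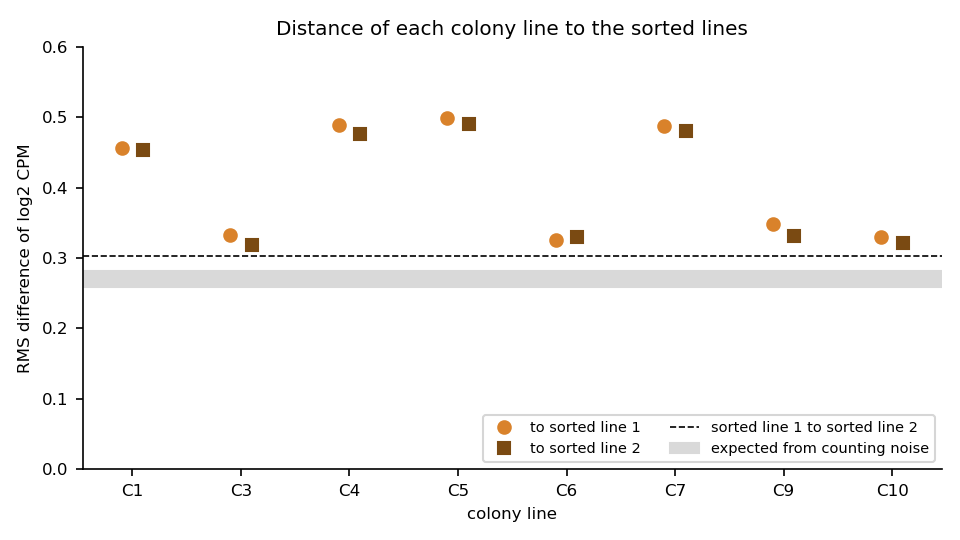
RMS difference of log2 CPM over 11870 genes (vertical axis) between each colony line (C1 to C10, horizontal axis) and sorted line 1 (circles) or sorted line 2 (squares). The dashed line is the distance between the sorted lines, 0.302, and the grey band is the 0.259 to 0.281 expected from counting noise; C3, C6, C9 and C10 sit near the line and C1, C4, C5 and C7 well above it.

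Counts of strongly different genes gave the same picture. Among 5091 well-expressed genes (mean of at least 5 log2 CPM), colony line 6 differed more than 2-fold from sorted line 1 in 1 gene, colony line 10 in 0, line 3 in 1 and line 9 in 2. For colony lines 1, 5, 4 and 7 the numbers were 18, 16, 37 and 45. Against sorted line 2, colony lines 3, 10 and 9 differed in 1 gene each and line 6 in 2, while lines 1, 5, 4 and 7 differed in 15, 16, 30 and 35. The starting undifferentiated culture is 1 library. Its RMS distance was 0.370 to colony line 9, which was nearest to it, and 0.440 to 0.446 to lines 3, 6 and 10. It was 0.571 to 0.583 to colony lines 1, 4, 5 and 7, and 0.407 and 0.393 to sorted lines 1 and 2.

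The nearest line depended on which genes were compared. Over the 29 gene lists with at least 5 tested members, the colony line nearest to sorted line 1 was line 9 in 9 lists, line 6 in 6, line 10 in 6, line 3 in 5, line 7 in 2 and line 5 in 1. For sorted line 2 it was line 10 in 10 lists, line 6 in 9, line 9 in 6, line 3 in 2, and lines 5 and 7 in 1 each. Colony lines 1 and 4 were nearest in 0 lists. Colony line 7 was farthest from sorted line 1 in 10 lists and from sorted line 2 in 13.

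The immediate-early genes Egr1 and Fos were low in some colony lines and high in others. Egr1, a transcription factor induced within minutes by growth factor signalling through ERK, had 9.92, 10.5, 9.24 and 21.2 CPM in colony lines 1, 4, 5 and 7. In colony lines 3, 6, 9 and 10 it had 125, 117, 163 and 124 CPM, against 114 and 144 CPM in sorted lines 1 and 2. The sorted lines fell among the high colony lines, and Egr1 was among the 12 that varied most between colony lines of the genes with a mean of at least 5 log2 CPM. Fos, another immediate-early factor, had 1.96, 2.81, 2.10 and 8.17 CPM in colony lines 1, 4, 5 and 7. It had 13.1, 15.9, 28.2 and 16.5 CPM in colony lines 3, 6, 9 and 10, against 14.4 and 15.4 CPM in the sorted lines. Other members of the list did not all follow this order. Egr2 did, at 0 to 2.40 CPM in the colony lines. Myc ran the other way, with 84.8, 66.6, 62.7 and 70.4 CPM in colony lines 1, 4, 5 and 7. In colony lines 3, 6, 9 and 10 Myc had 52.7, 56.5, 43.0 and 60.6 CPM. Spred1 ran as Myc did, with 46.6 to 50.5 CPM in the former lines and 30.3 to 45.3 CPM in the latter. Spry2, a feedback inhibitor of receptor signalling and a later ERK target, did not follow the order of Egr1 and Fos either. It had 91.2 to 123 CPM in the colony lines, against 100 and 94.5 CPM in the sorted lines. Across the ERK response list, 9 of 15 tested members had a higher mean in colony lines and 6 a lower one, with a median log2 fold change of 0.03.

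Glycolytic and hypoxia-responsive genes also differed from line to line. Of 21 tested members, 19 lay below both sorted lines in colony lines 1, 5 and 7 alike, 18 in line 4, 15 in lines 3 and 10, and 8 in line 6. Colony line 9 went the other way, with 18 of the 21 above both sorted lines. Over all 11870 genes the share below both sorted lines was 34.6 to 42.7% and the share above both 34.1 to 40.1%, depending on the colony line. Against the sorted lines as a group, 19 of 21 members had a lower mean in colony lines, 1 at an unadjusted p under 0.05 (Vegfa), and the list's median log2 fold change was -0.23 beside -0.00055 over all genes. No member passed the test.

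Bnip3, a mitophagy receptor induced by hypoxia, had 2.52, 16.4, 4.58, 5.46, 15.6, 5.07, 32.7 and 14.4 CPM in colony lines 1, 3, 4, 5, 6, 7, 9 and 10, against 22.3 and 21.3 CPM in sorted lines 1 and 2. Only colony line 9 exceeded the sorted lines. Ldha, the subunit of lactate dehydrogenase that favours lactate production, had 390, 596, 340, 389, 628, 359, 833 and 588 CPM in the same order of colony lines, against 696 and 638 CPM in the sorted lines. Tpi1, which interconverts the triose phosphates, had 80.1 to 224 CPM in the colony lines, against 187 and 160 CPM in the sorted lines. Vegfa, the angiogenic growth factor and a standard hypoxia target, was low in all lines and did not overlap, with 0.978 to 4.97 CPM in the colony lines and 7.10 and 7.01 CPM in the sorted lines. Its log2 fold change was -1.28 ± 0.38 (SE, adjusted p = 0.52, edgeR quasi-likelihood test). Bnip3, Ldha and Tpi1 were picked from the list after their values were seen.

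The 2-cell-like genes followed another order. Zscan4 proteins mark a small, transient fraction of ES cells that resembles the embryo at the 2-cell stage, so a bulk level mixes how many cells are in that state and how much each makes. Zscan4c had 30.3, 165, 47.0, 22.5, 104, 48.2, 84.6 and 150 CPM in colony lines 1, 3, 4, 5, 6, 7, 9 and 10, against 115 and 133 CPM in the sorted lines. Colony lines 3 and 10 lay above both sorted lines and the other 6 below. Zscan4f ran in parallel, with 22.8 to 164 CPM in the colony lines, against 117 and 141 CPM in the sorted lines. Zscan4 copies are nearly identical, and reads cannot be assigned to 1 copy with confidence. Of 9 tested members of the list, 8 had a lower mean in colony lines, against 5950 of all 11870 genes, with a median log2 fold change of -0.61. Most of these members are the copies Zscan4a to Zscan4f, at -0.64 to -0.56, so the count does not hold that many separate measurements. SEs were large: Zscan4c differed by -0.61 ± 0.54 (adjusted p = 0.688, edgeR). In this list colony line 10 was nearest to sorted line 2, at 0.118, and colony line 9 to sorted line 1, at 0.408.

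Several genes of basement membrane, muscle and fibroblasts were high in single colony lines and low in both sorted lines. Col4a1, a chain of basement membrane collagen IV that parietal endoderm makes in bulk, had 657 CPM in colony line 5, 184 in line 4, 82.9 in line 1 and 19.5 to 34.7 in the other 5, against 34.5 and 30.0 CPM in the sorted lines. Col4a2, its partner chain, had 331 CPM in colony line 5, 106 in line 4 and 44.9 in line 1, against 13.1 and 9.29 CPM in the sorted lines. Acta2, smooth muscle actin, had 86.1 CPM in colony line 5, 53.3 in line 4, 9.64 in line 1 and 1.18 to 2.29 in the others, against 0.645 and 1.43 CPM in the sorted lines. Tagln, an actin-binding protein of smooth muscle, had 48.3 CPM in colony line 5 and 24.8 in line 4, against 0.807 and 0.572 CPM in the sorted lines.

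Fibrillar collagen was high in colony line 4. Col1a1, a chain of collagen I made by fibroblasts, had 73.0 CPM in colony line 4, 8.67 in line 1 and 7.0 in line 5, against 0.807 and 1.00 CPM in the sorted lines. Thy1, another fibroblast marker, had 0.28 to 1.33 CPM in the colony lines, against 1.61 and 1.57 CPM in the sorted lines (log2 fold change -1.15 ± 0.45, adjusted p = 0.526, edgeR). It rests on 39 reads over the colony lines and 21 over the sorted lines. Thy1 passed the count filter only through the sorted lines, where it was higher. Col1a1 passed only through the colony lines, where it was higher, so their directions cannot be weighed against each other. The endoderm factors Gata6 and Sox17 were too low to test. They had 4.34 and 4.48 CPM in colony line 5, against 0.323 and 0.161 CPM in sorted line 1 and 0.143 CPM each in sorted line 2. Of the other markers, Gata4 ran the same way, with 3.78 CPM in colony line 5, against 0.645 and 1.29 CPM in the sorted lines. Cubn ran the other way, with 0.56 CPM in colony line 5 and 2.52 in line 1, against 2.58 and 1.00 CPM. Amn, at most 0.423 CPM in any colony line, had 0.286 to 0.968 CPM in the sorted lines. Of the 6 tested muscle genes 4 had a higher mean in colony lines (median log2 fold change 3.41), as did 9 of 12 endoderm genes (0.44) and 6 of 10 mesenchyme genes (0.21). None was called. Over all 11870 genes 5920 had a higher mean in colony lines. Myl9, Tagln and Cnn1 had 1, 9 and 3 reads in the sorted lines together, so they reached the filter count of 10 only in colony lines. Acta2, Col1a1, Col1a2, Gata4, Dab2 and Pdgfra had 14, 12, 9, 13, 15 and 19 reads there, too few for 10 in both sorted lines. They too were kept through the colony lines. The muscle, endoderm and mesenchyme counts and medians are therefore partly set by the filter and are no measure of direction. For Acta2 the fitted log2 fold change was 4.20 ± 2.23 (SE, adjusted p = 0.559, edgeR), and leaving out any 1 line gave 3.24 to 4.90. The same limit holds for these Acta2 values.

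**Figure D2:**
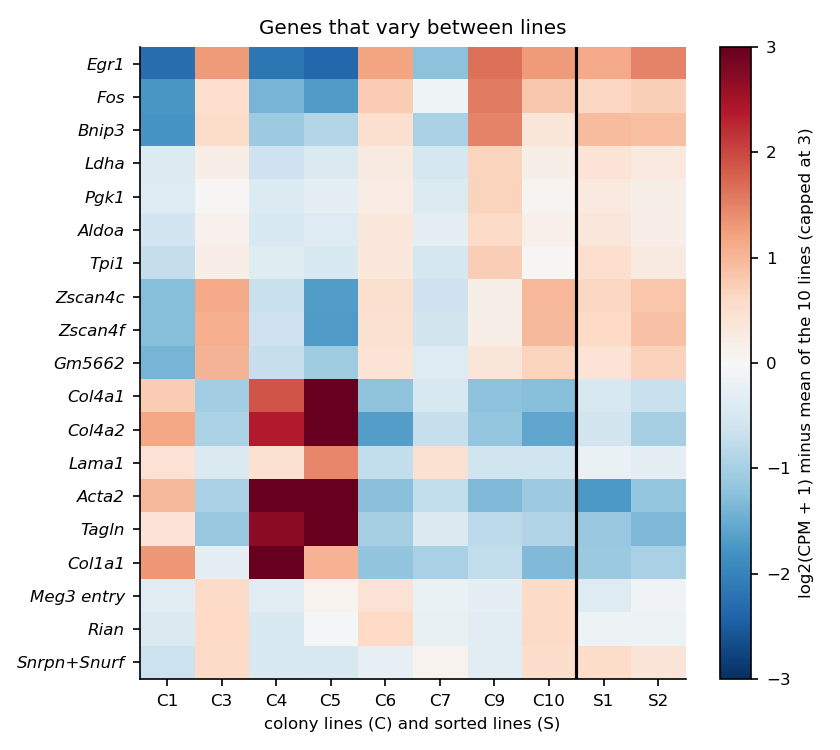
Level of 19 genes or joint entries (vertical axis) in the 8 colony lines and the 2 sorted lines (horizontal axis), as log2(CPM + 1) minus the mean of the 10 lines, red above and blue below, with colours capped at 3. Egr1, Fos and the glycolytic genes are blue in C1, C4, C5 and C7, Col4a1 and Acta2 are red in C4 and C5, and Meg3 and Rian are red in C3, C6 and C10.

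The core pluripotency genes had close levels in both groups, with log2 fold changes of -0.09 to 0.14 and SEs of 0.06 to 0.15 for 6 of them. Zfp42, the reporter gene itself, had 610, 542, 565, 584, 543, 347, 529 and 542 CPM in colony lines 1, 3, 4, 5, 6, 7, 9 and 10, against 485 and 480 CPM in the sorted lines. Colony line 7 alone was below the sorted lines. Pou5f1 had 1406 to 1562 CPM in the colony lines, against 1561 and 1537 CPM in the sorted lines. Nanog averaged 487 ± 42.0 CPM (SD, n = 8) in the colony lines, against 529 and 510 CPM in the sorted lines. Sox2 averaged 300.1 ± 27.7 CPM in the colony lines, against 286 and 287 CPM in the sorted lines. Klf4 averaged 144 ± 15.9 CPM, against 149 and 143 CPM, and Esrrb 367 ± 25.5 CPM, against 369 and 334 CPM. The edgeR test gave adjusted p-values of 0.68 to 0.975 for the same 6 genes. Fgf5, a marker of the later epiblast, was too low to test, with 0 to 1.31 CPM in the colony lines, against 0 and 0.572 CPM in the sorted lines.

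Other members of the naive network stood further apart without passing the test. Tfcp2l1, a STAT3 target that sustains self-renewal, had 120 to 211 CPM in the colony lines, against 117 and 123 CPM in the sorted lines (log2 fold change 0.40 ± 0.18, adjusted p = 0.536, edgeR). Lifr, a subunit of the LIF receptor, had 33.0 to 64.2 CPM in the colony lines, against 27.3 and 35.5 CPM in the sorted lines. Tet1, which oxidises methylated cytosine, had 235 to 470 CPM in the colony lines, against 243 and 261 CPM in the sorted lines. In each of the 3 genes colony line 9 was lowest and overlapped the sorted lines, and line 1 or line 7 was highest. T (Brachyury), a mesoderm factor and Wnt target, had 1.79 to 3.50 CPM in the colony lines, against 1.45 and 1.29 CPM in the sorted lines, without overlap (0.95 ± 0.35, adjusted p = 0.52, edgeR). It rests on 147 reads over the colony lines and 18 over the sorted lines, too few for the filter count of 10 in both sorted lines. T was thus kept through the colony lines, where it was higher, so its direction carries no weight. Of 18 naive genes 10 had a higher mean in colony lines and 8 a lower one, and of 18 general pluripotency genes the counts were 11 and 7, with medians of 0.03 and 0.06.

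Some genes had no overlap between the groups, although none was called. Camk1d, a calcium and calmodulin-dependent kinase, had the smallest p-value. It had 14.8 to 19.3 CPM in the colony lines, against 9.52 and 9.58 CPM in the sorted lines (0.79 ± 0.13, adjusted p = 0.484, edgeR). Fn1, the matrix glycoprotein fibronectin, had 1797 to 2175 CPM in the colony lines, against 1598 and 1668 CPM in the sorted lines (0.28 ± 0.08, adjusted p = 0.52). Scml2, a germline Polycomb-associated protein on the X chromosome, had 8.13 to 20.9 CPM in the colony lines, against 40.3 and 22.6 CPM in the sorted lines (-1.25 ± 0.25, adjusted p = 0.52). Sorted line 1 stood well above sorted line 2 here, sorted line 2 was close to the highest colony line, and the log2 fold change was -0.77 without sorted line 1 and -1.61 without sorted line 2. Camk1d and Scml2 were chosen after their values were seen.

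All 3 enzymes of serine synthesis from glycolytic carbon lay lower in every colony line than in either sorted line. Phgdh, which starts the pathway, had 48.4 to 75.5 CPM in the colony lines, against 85.4 and 86.6 CPM in the sorted lines (-0.41 ± 0.15). Psat1, the aminotransferase of the middle step, had 39.2 to 57.6 CPM in the colony lines, against 76.2 and 70.2 CPM in the sorted lines (-0.58 ± 0.11). Psph, the phosphatase that releases serine, had 19.15 to 27.2 CPM in the colony lines, against 30.5 and 28.0 CPM in the sorted lines (-0.37 ± 0.13). Each had an edgeR adjusted p of 0.52. In the undifferentiated library Psat1, Phgdh and Psph had 96.1, 121 and 38.6 CPM, above all 10 lines. These genes are members of the amino acid stress and ATF4 list, in which 3 of 14 tested members lay below without overlap (5.21% of all genes did), 6 had a higher mean in colony lines and 8 a lower one.

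Several germline-linked genes lay on the same side. Dppa3 (Stella), a maternal factor that protects imprints and is also expressed in naive ES cells and primordial germ cells, had 0.49 to 1.43 CPM in the colony lines, against 2.90 and 2.72 CPM in the sorted lines (-1.61 ± 0.35). It rests on 50 reads over the 8 colony lines and 37 over the sorted lines, and it passed the count filter only through the sorted lines. Stra8, induced by retinoic acid before meiosis, had 0.978 to 4.88 CPM in the colony lines, against 7.42 and 8.72 CPM in the sorted lines (-1.45 ± 0.38). Tex19.1, which restrains transposons in germ cells and lies on chromosome 11, had 21.2 to 35.3 CPM in the colony lines, against 44.9 and 41.5 CPM in the sorted lines (-0.65 ± 0.16). The adjusted p was 0.52 for each (edgeR). Piwil2, a Piwi protein of the germline, ran the other way, with 5.07 to 8.75 CPM in the colony lines, against 5.16 and 3.72 CPM in the sorted lines. So did Taf7l, another low gene, with means of 1.54 CPM in the colony lines and 0.66 CPM in the sorted lines (1.15 ± 0.52, adjusted p = 0.536, edgeR). Taf7l passed the count filter only through the colony lines, where it was higher, so its direction carries no weight. Of 11 tested members 9 had a log2 fold change below 0, against 5950 of all 11870 genes, and 3 of them lay below without overlap, against 5.21% of all genes. Dppa3 is among those 3, and since the filter kept it through the group where it is high, it adds nothing to the direction of these counts. Nor does Taf7l, among the 2 members with a higher mean, for the same reason.

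**Figure D3:**
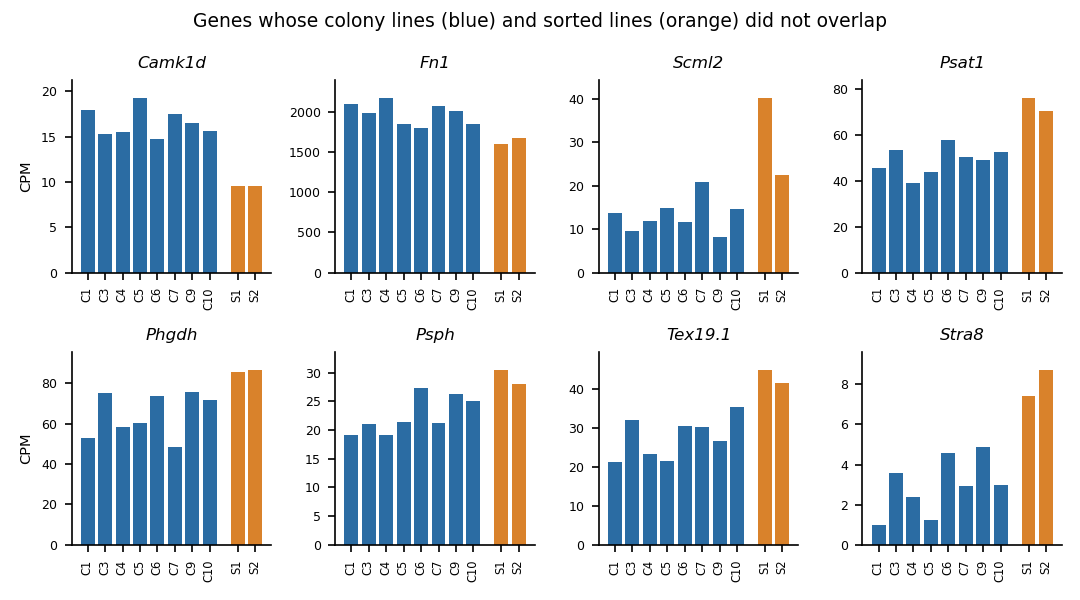
CPM (vertical axes, from 0) of 8 genes in each colony line (blue, C1 to C10) and each sorted line (orange, S1 and S2); bars are single libraries. Camk1d and Fn1 are higher in all 8 colony lines than in both sorted lines, and the other 6 genes are lower in all 8, but none has an adjusted p under 0.05.

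Respiratory chain genes had slightly lower means in colony lines, in 26 of 27 tested members, against 5950 of all 11870 genes, with a median log2 fold change of -0.11. Atp5g1, a subunit of the ATP synthase ring, had 117 to 169.7 CPM in the colony lines, against 199 and 179 CPM in the sorted lines. Uqcrq, a subunit of complex III, had 51.3 to 79.7 CPM in the colony lines, against 84.4 and 83.8 CPM in the sorted lines. These are short genes, with a median exon length of 540 bases in the list against 1614 over all genes tested. Beside the length gradient described above, 24 to 25 of the 27 members (88.9 to 92.6%) lay below both sorted lines in colony lines 1, 4, 5 and 7. Over all genes the share in those lines was 41.1 to 42.7%. In colony lines 3, 6, 9 and 10 it was 10 to 16 members (37.0 to 59.3%), against 34.6 to 36.0% of all genes. Both Atp5g1 and Uqcrq lie on chromosome 11. Sdhb, on chromosome 4, and Atp5o, on chromosome 16, also lay below both sorted lines in every colony line. Ndufb9, on chromosome 15, had 74.5 to 99.1 CPM in the colony lines, against 109 and 97.8 CPM in the sorted lines.

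The group difference that involved most genes followed chromosome 11. This chromosome holds 963 of the tested genes (8.11%), and 745 of them (77.4%) had a lower mean in colony lines. The median level of its genes relative to the mean of the 10 lines was -0.04, -0.02, -0.05, -0.04, -0.01, -0.02, 0.00 and -0.01 on the log2 scale in colony lines 1, 3, 4, 5, 6, 7, 9 and 10. In sorted lines 1 and 2 it was 0.10 and 0.12. The groups did not overlap, and their means differed by -0.14. Line medians also did not overlap on chromosomes 2 and 16, higher in colony lines by 0.03 and 0.04, and on chromosome 15, lower, with a difference of -0.02. In 208 of the 963 genes (21.6%) every colony line lay below both sorted lines, against 3.77% of the genes on other chromosomes. Chromosome 11 thus held 33.6% of all 619 such genes, and 220 of the 560 genes (39.3%) with a lower mean at an unadjusted p under 0.05.

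The shift was seen along the chromosome. When its tested genes were divided by position into 8 blocks of 119 to 120 genes, every colony line was below both sorted lines in all 8 blocks, with block median log2 fold changes of -0.17 to -0.09. Leaving out any line in turn gave differences of -0.14 to -0.13, and removing the exon length trend gave -0.13. In the undifferentiated library the chromosome 11 median on the same scale was 0.08, between the colony lines and the sorted lines. Chromosomes 6 and X also had 0.08 each in that single library, so this level was not particular to chromosome 11. Cultured mouse ES cells are known to gain whole chromosomes, 8 and 11 among them, but chromosome number was not measured here and its part in these differences was not tested.

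Named chromosome 11 genes came from many pathways. Birc5 (survivin) had 72.7 to 89.6 CPM in the colony lines, against 91.0 and 96.9 CPM in the sorted lines. Aurkb, its partner kinase in the chromosomal passenger complex, had 55.4 to 67.1 CPM in the colony lines, against 74.7 and 69.8 CPM in the sorted lines. Of 17 tested cell division genes 4 lay below both sorted lines in every colony line, as did 5.21% of all genes and 21.6% of those on chromosome 11; the other 2 were Aurka, on chromosome 2, and Plk1, on chromosome 7. Acly, which supplies acetyl-CoA for lipid synthesis, had 602 to 674 CPM in the colony lines, against 704 and 713 CPM in the sorted lines. Pecam1, a surface adhesion molecule of endothelium that naive ES cells also carry, had 48.1 to 80.9 CPM in the colony lines, against 83.9 and 87.4 CPM in the sorted lines. All 4 genes had edgeR adjusted p-values between 0.52 and 0.521, and their log2 fold changes were -0.25, -0.23, -0.16 and -0.46.

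**Figure D4:**
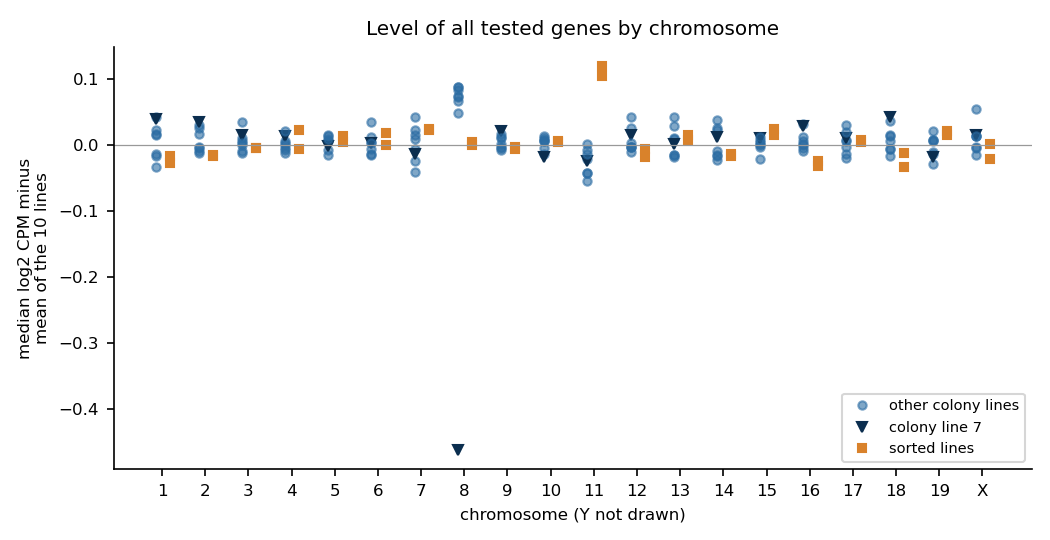
Median over the tested genes of each chromosome (horizontal axis) of log2 CPM minus the mean of the 10 lines (vertical axis), with 1 point per line. The sorted lines (orange squares) stand above all 8 colony lines on chromosome 11, and colony line 7 (dark triangle) stands at -0.46 on chromosome 8, where the other colony lines lie at 0.05 to 0.09.

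Chromosome 8 set colony line 7 apart from all other lines of either kind. Over 642 tested genes its median was -0.46, while the other 7 colony lines had 0.05 to 0.09 and the sorted lines 0.00 each. Colony line 7 lay 0.54 below the mean of the other colony lines, and the sorted lines lay 0.46 above it. The other 7 colony lines were 0.07 above the sorted lines on average, so the sorted lines stood between colony line 7 and the rest but close to the rest. With colony line 7 included, colony lines minus sorted lines was 0.01, and without it 0.07. In 8 blocks along the chromosome colony line 7 had medians of -0.52 to -0.41. Klf2, a naive pluripotency factor on this chromosome, had 155 CPM in colony line 7 and 239 to 297 CPM in the other colony lines, against 266 and 272 CPM in the sorted lines. Zfp42 is also on chromosome 8.

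**Figure D5:**
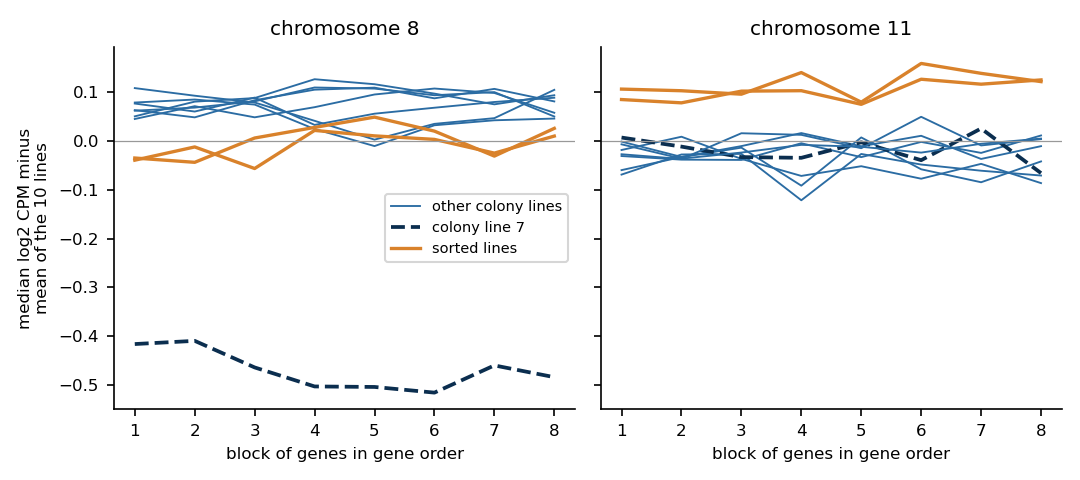
Median log2 CPM minus the mean of the 10 lines (vertical axis) in 8 blocks of tested genes ordered along chromosome 8 (left) and chromosome 11 (right). Colony line 7 (dashed) lies between -0.52 and -0.41 in every block of chromosome 8, and both sorted lines (orange) lie above every colony line in all 8 blocks of chromosome 11.

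Colony line 7 also had almost no Y-linked RNA. Ddx3y, a Y-linked RNA helicase, had 0 reads in colony line 7, which allows up to 0.49 CPM (the 95% limit of 3 reads, counting error only), and 66.0 to 113 CPM in the other colony lines, against 54.1 and 56.3 CPM in the sorted lines. Eif2s3y, a Y-linked translation factor subunit, had 0.49 CPM in colony line 7 and 63.6 to 118 CPM in the other colony lines, against 74.9 and 68.6 CPM in the sorted lines. Both sorted lines had Y-linked RNA at levels near or below the lowest of those 7 colony lines. On the 18 chromosomes other than 8, 11 and Y, line medians stayed between -0.04 and 0.05, and colony lines minus sorted lines between -0.02 and 0.04.

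The remaining pathway lists showed small shifts with no called member. Of 20 tested members of the AMPK pathway, 8 had a higher mean in colony lines and 12 a lower one, with a median log2 fold change of -0.02. Prkab1, the beta subunit of AMPK, had 18.2 to 22.0 CPM in the colony lines, against 18.6 and 16.0 CPM in the sorted lines. Slc2a1, a glucose transporter, had 119 to 199 CPM in the colony lines, against 192 and 171 CPM in the sorted lines. The counts of higher and lower means were 8 and 5 for the LIF-STAT3 response, 4 and 6 for the Wnt response, and 4 and 5 for the BMP response. They were 12 and 5 for p53 targets, 9 and 3 for Polycomb complexes, 6 and 3 for DNA methylation enzymes, and 7 and 2 for X-linked dosage genes. Lower means prevailed in purine and folate synthesis (4 and 13), sterol and fatty acid synthesis (5 and 16) and heat shock and unfolded protein genes (2 and 12). Over all genes tested the counts were 5920 and 5950.

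Imprinted transcripts differed between single lines. Rian, a noncoding RNA of the maternal copy of the Dlk1-Dio3 region, had 501, 503 and 494 CPM in colony lines 3, 6 and 10. It had 245, 243, 319, 286 and 265 CPM in colony lines 1, 4, 5, 7 and 9, against 297 and 298 CPM in the sorted lines. The joint entry of Meg3 and its microRNAs, from the same region, had 364, 328 and 365 CPM in colony lines 3, 6 and 10 and 192 to 263 CPM in the other 5, against 186 and 225 CPM in the sorted lines. In both entries the sorted lines lay among or near colony lines 1, 4, 5, 7 and 9, and below lines 3, 6 and 10. Reads of genes joined in 1 entry cannot be told apart. The joint entry Snrpn and Snurf, expressed from the paternal copy, had 130.3 and 125 CPM in colony lines 3 and 10 and 54.6 to 92.7 CPM in the other 6, against 128 and 114 CPM in the sorted lines. Of 15 tested imprinted genes with an entry of their own, 8 had a higher mean in colony lines and 7 a lower one, with a median of 0.00. Joint entries are not in this count, such as those of Meg3 (log2 fold change 0.36) and of Snrpn and Snurf (-0.53).

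Between sorted line 1 and its nearest colony line 6, the 8 genes that differed most among those with a mean of at least 5 log2 CPM included Impdh1, an enzyme of guanine nucleotide synthesis. It had 31.4 CPM in colony line 6 and 48.5 to 65.0 CPM in the other colony lines, against 78.3 and 67.6 CPM in sorted lines 1 and 2. Colony line 6 was also lowest in Eif4g3, a translation initiation factor, with 18.6 CPM against 30.5 CPM in sorted line 1. Meg3, Rian and Snrpn, given above, were in the same set of 8. Between colony line 3 and sorted line 2 the set, chosen in the same way, held Gpc4, a cell surface proteoglycan, with 69.6 CPM in colony line 3 and 63.7 in line 7. The other 6 colony lines had 32.0 to 37.6 CPM, against 39.7 and 33.6 CPM in the sorted lines. It also held Gtf3c2, a subunit of the RNA polymerase III factor TFIIIC, with 142 CPM in colony line 3 and 221 to 267 CPM in the other colony lines, against 215 and 223 CPM in the sorted lines. Mt1 and Mt2, the metal-binding metallothioneins, had 67.1 and 88.8 CPM in colony line 3, against 40.0 and 47.2 CPM in sorted line 2. These are comparisons of 1 library with 1, with no replicate check and no test.

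The 4 well-expressed genes that differed most between the sorted lines, chosen after their values were seen, were Rn45s, the joint entry of Kcnq1 and Kcnq1ot1, Malat1 and Neat1. Rn45s, the ribosomal RNA precursor, had 4277 CPM in sorted line 1 and 9696 CPM in sorted line 2, within the colony range of 2747 to 11333 CPM, and was the only one of the 5091 genes to differ more than 2-fold. Malat1 and Neat1, nuclear noncoding RNAs, had 310 and 43.1 CPM in sorted line 1, against 539 and 72.6 CPM in sorted line 2. In both, sorted line 1 was below all 8 colony lines. A chi-square of their counts per degree of freedom was 2.95 for the pair of sorted lines, where 1 is counting noise alone, and 1.92 to 14.5 for the 28 pairs of colony lines, so no pair was a repeat of 1 library.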

How the data were processed

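Poly(A) RNA of each line was sequenced as a stranded mRNA library, per the labels' protocols. Per the file headers, the deposited counts give uniquely mapped reads for each RefSeq gene and come from the authors' run of rpkmforgenes. RPKM, computed by the authors without 3' untranslated regions per the file headers, served only for an alternative distance and for exon lengths. The submitters' processing notes name Trimmomatic 0.3.3, Bowtie2 2.2.5, TopHat2 2.0.14 and the build mm9. Whether counting used strand is not given in the sources used here. The table has 22756 entries, of which 448 share a name (0.524 to 0.624% of reads) and 974 join overlapping genes.

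Colony lines were compared with sorted lines with edgeR 4.0.16 in R 4.3.3 (quasi-likelihood test, TMM scaling). Genes needed a count of 10 and a total of 15, and p-values were Benjamini-Hochberg adjusted over 11870 genes, with a threshold of 0.05. The script was tested on simulated data. CPM use the same scaling. Log2 CPM for distances and chromosome medians have a prior count of 2. Chromosomes and gene order come from a RefSeq table of GRCm38.p6, used without coordinates. Exon length was derived from counts, RPKM and header totals. Lists, distances and chromosomes are descriptions without tests. DESeq2 1.42.0, limma-voom (limma 3.58.1), other scalings, filters and left-out lines were alternatives.

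Members and lists were chosen with earlier results of these data known. Genes were named as up to 4 list members of smallest adjusted p, 8 fixed genes, the 12 most variable between colony lines and, per sorted line, the 8 farthest from its nearest colony line (both among genes with a mean of at least 5 log2 CPM), plus those said to be chosen after their values were seen. Fos, Klf2, Gata6 and Sox17 were also picked from lists or markers with values known.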

Additional observations from a re-analysis of the deposited data

Results flagged for a closer look

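Single colony lines stood far from the other 7 in 15 of 85 sets of values checked, where chance alone marks about 1 in 20. Many of these genes were chosen because they vary between colony lines or with their values known, so the number is no measure of an excess. In colony line 7, Zfp42 had 347 CPM (next lowest 529), Klf2 155 CPM (next lowest 239), Ddx3y 0 CPM (next lowest 66.0) and Eif2s3y 0.49 CPM (next lowest 63.6), while Fgf5 had 1.31 CPM (next highest 0.573). The chromosome 8 median of the same line was -0.46 (next lowest 0.05). Zfp42 and Klf2 lie on chromosome 8.

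In colony line 5, Col4a1 had 657 CPM (next highest 184), Col4a2 331 CPM (next highest 106), Gata6 4.34 CPM (next highest 0.978) and Sox17 4.48 CPM (next highest 1.33). Its chromosome 15 median was -0.021 (next lowest -0.0030) and its X chromosome median 0.054 (next highest 0.014). Col1a1 had 73.0 CPM in colony line 4 (next highest 8.67). Gtf3c2 had 142 CPM in colony line 3 (next lowest 221). Bnip3 had 32.7 CPM in colony line 9 (next highest 16.4). The sorted lines, being 2, were not checked in this way.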

How the results depend on the processing

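Under every alternative except DESeq2 the comparison called 0 genes. DESeq2 called 1 higher (Camk1d, log2 fold change 0.80) and 1 lower (Psat1, -0.58). Leaving out each line in turn gave 0 calls throughout. Genes at an unadjusted p under 0.05 then numbered 172 to 828 higher and 226 to 718 lower. Without sorted line 1 they were 172 and 226, without sorted line 2 they were 292 and 263, and without colony line 9 there were 828 higher. With 1 sorted line left, that line is assumed to vary like the colony lines.

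The nearest colony line, 6 for sorted line 1 and 3 for sorted line 2, ranged over 6 to 10 and 3 to 10 by line number when lines were left out: line 10 took the place of either when it was removed. Of the 4 nearest lines, 3 to 4 stayed, 3 only where 1 of them was itself left out. The chromosome 8 and 11 differences moved by less than the SD between colony lines, 0.19 and 0.019. On chromosome 8 that SD came mainly from colony line 7, at -0.46, so it is a loose yardstick. With lines left out the difference there ranged from -0.0085 to 0.070 and so changed sign.

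Of 62 named genes under 20 settings, 1181 of 1203 values kept direction and side of the threshold. The 20 that changed sign belong to uncalled genes. Klf4 was 0.0020 without a count filter and -0.055 to 0.026 with lines left out. Ddx3y was -0.54 and Eif2s3y -0.51 with limma-voom. The Kcnq1 entry was -0.33 and Gtf3c2 -0.0087 with the length trend removed. Eif4g3 was -0.031 with limma-voom and -0.10 with the length trend removed. With lines left out, Esrrb ranged from -0.0062 to 0.15, the Kcnq1 entry from -0.34 to 0.59, Eif4g3 from -0.068 to 0.13, Rn45s from -0.74 to 0.43, Malat1 from -0.0023 to 0.79 and Neat1 from -0.075 to 0.67. The cause was not tested.

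No paired analysis was possible because no label links a colony line to a sorted line. The comparison rests on 2 sorted lines, so a single gene needs a difference well beyond a biological coefficient of variation of 0.115 to be called. Low genes such as Dppa3 rest on few reads. Alternatives without chromosome 11, without chromosomes 8 and 11 together and with the length trend removed, the removed trend and left-out lines for chromosome levels included, were added after seeing the data.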
